A study of Saccharomyces cerevisiae with 8 samples.

Results

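Newly made RNA was compared between a strain of the budding yeast Saccharomyces cerevisiae with the mutant allele med21-1002 and its parent. Of the 8 libraries of the series, 4 make up this comparison, 2 of med21-1002 (strain J20) and 2 of the parent (strain HS1004), chosen by their labels. Of 6030 annotated transcripts, 5701 had enough counts to be tested. Both strains carry mutant alleles of ADE, HIS3, LEU2, TRP1 and URA3 genes, can1-100, cyh2r and hsp82- DHSE-lacZ, and both are labelled MATa. The labels do not describe the lesion, and they name 1 strain for the allele. A further group of 2 libraries, from med10-1002 in the same background (strain J84), entered the same fit to estimate the spread and to show where med21-1002 differed from another Mediator allele. The 2 med7-1002 libraries were left out. Per the labels' protocols, all cultures were grown at 30 °C in YPD, a rich glucose medium, to an OD600 of 0.8. The modified base 4-thiouracil, which cells build into RNA as they make it, was then added at 5 mM for 6 min, and the RNA that had taken it up was purified and sequenced. The question is how the allele affects RNA synthesis across the genome.

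Mediator is a large complex that passes signals from DNA-bound activators and repressors to RNA polymerase II at the promoter. It has head, middle and tail modules and a kinase module that binds reversibly. Head and middle make up its core, and Med21, encoded by SRB7, pairs with Med7 in the middle module in a flexible hinge.

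The 6 libraries of the fit held between 14243200 and 21190842 counts on transcripts, and a further 32.7% to 36.3% of reads fell on no annotated transcript. Between the libraries of a group, log2 levels differed with an SD over the tested transcripts of 0.354 for med21-1002, 0.258 for parent and 0.221 for med10-1002. The labels do not tie the libraries of a group to separate cultures, so the spread that the p-values rest on is between samples and may be technical. The mating type in the labels went against the counts: 4 measured alpha-cell genes summed to 1315 and 1254 CPM in the parent libraries and 1022 and 980.1 CPM in the med21-1002 libraries, by library size alone. The 6 annotated a-cell genes summed to 28.4 and 27.6 CPM in parent and 17.7 and 16.4 in med21-1002, of which MFA1 and MFA2, the a-factor genes, gave at most 1.03 CPM each. MF(ALPHA)1, the alpha-factor gene, and AFB1, whose product captures a-factor, fell (log2 fold changes -0.83 and -0.44), and so did the a-cell genes STE2, the alpha-factor receptor, and BAR1, an alpha-factor protease (-0.65 and -0.92). Leaving out 1 library ended the call of BAR1 (without parent 1, parent 2, med21-1002 2, med10-1002 1 and med10-1002 2, adjusted p from 0.070 to 0.16). Reads also lay on the HSP82 transcript in every library (5999 and 5947 CPM in the parent libraries and 5598 and 5244 CPM in the med21-1002 libraries), although both genotypes list hsp82-, and its level did not pass the test (log2 fold change -0.14, SE 0.10, adjusted p = 0.33).

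The lesion's own transcript carried no call. SRB7 (YDR308C, chromosome IV, 1077919 to 1078490, minus strand) stood at 12.5 and 14.9 CPM in the parent libraries and 10.4 and 13.8 CPM in the med21-1002 libraries (log2 fold change -0.18, SE 0.19, adjusted p = 0.51), and the libraries of the groups overlapped. Counts over the whole transcript do not show an allele that changes the protein, so this checks no label. Among the 8 head subunit genes 0 rose and 1 fell, MED6 (log2 fold change -0.50, SE 0.14, adjusted p = 0.019), and among the 7 measured middle subunit genes 0 rose and 1 fell, CSE2, which encodes Med9 (log2 fold change -0.68, SE 0.20, adjusted p = 0.022). The shares that fell, 12.5% and 14.3%, lie near the 14.9% of all tested transcripts. Leaving out 1 library ended the calls of MED6 (without parent 1 and parent 2, adjusted p from 0.072 to 0.14) and CSE2 (without parent 2 and med21-1002 1, adjusted p from 0.062 to 0.18). MED7, whose product pairs with Med21, did not pass (log2 fold change -0.23, SE 0.13, adjusted p = 0.20). URA3, the uracil synthesis gene listed as mutant in all strains, stood at 89.2 and 90.9 CPM in parent and 59.8 and 71.9 in med21-1002 (log2 fold change -0.45, SE 0.11, adjusted p = 0.0068), and leaving out 1 library ended the call of URA3 (without parent 2, adjusted p = 0.070).

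Across all annotated transcripts, rises and falls were nearly equal in number under TMM scaling. Of 5701 transcripts tested, 1694 differed between med21-1002 and parent (29.7%, edgeR quasi-likelihood test, adjusted p under 0.05). Of these, 844 were higher (14.8%) and 850 lower (14.9%), and the median log2 fold change of all tested transcripts was -0.00102. That balance depends on the scaling, with 662 higher and 991 lower under upper-quartile scaling and 1211 and 836 with transcript length corrected for. The shares of 14.8% and 14.9% are the ones to set beside the counts of each gene list below. A change of at least 2-fold was seen in 104 of the rises and 214 of the falls. In all 1694, both med21-1002 libraries lay beyond both parent libraries. The calls were made from these same libraries, so this separation is no separate support for them. The number of calls changed with each library left out. It fell without a parent or a med10-1002 library, most for the parent, and rose without either med21-1002 library. It was 448 with the med7-1002 libraries in the fit (all 8 libraries), where 134 of 259 calls examined one by one did not pass. With only the parent and med21-1002 libraries in the fit, it was 1213 (597 higher and 616 lower), and 33 of the 259 did not pass. The main count thus rests in part on the spread of the med10-1002 libraries. All values are in CPM (read counts scaled to library size with TMM factors), relative to the other transcripts of a library, so a change in the total RNA made per cell cannot be seen. The rises and falls of the transcripts with the largest changes are shown in the plot of CPM by library.

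**Figure D1:**
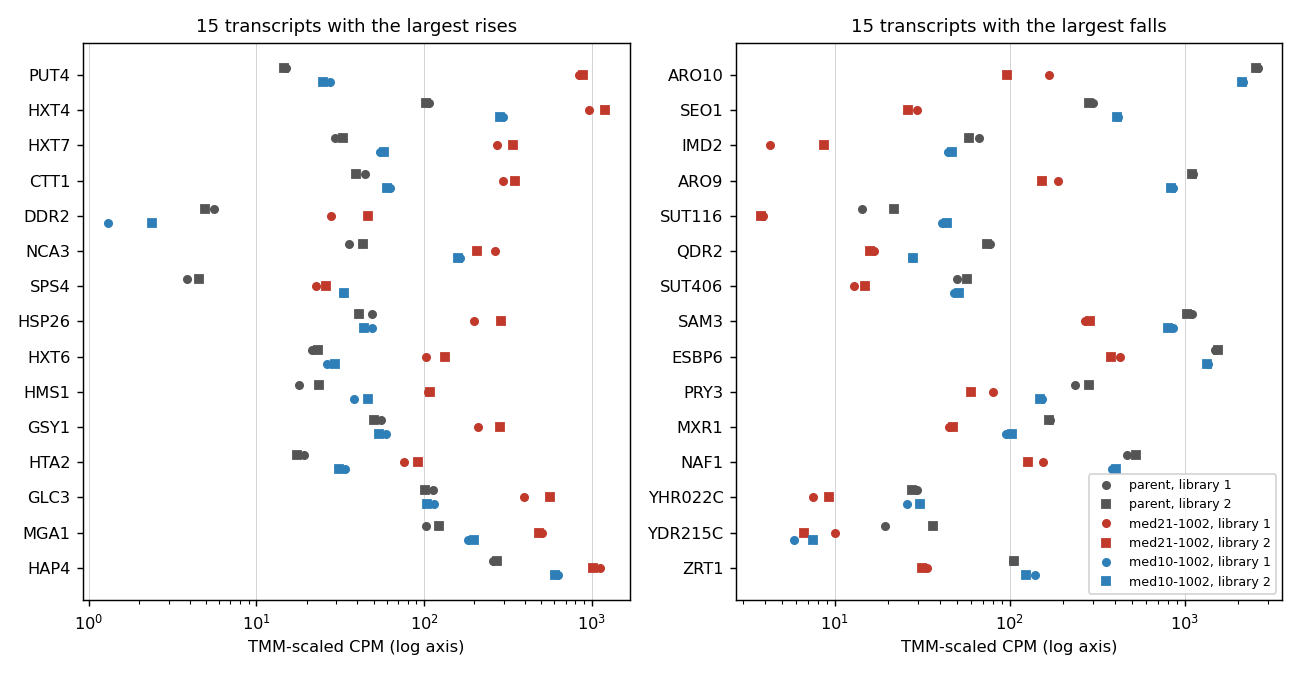
TMM-scaled CPM on a log axis in each library for the 15 transcripts with the largest rises (left) and the 15 with the largest falls (right) in med21-1002 against parent; circles are library 1 and squares library 2 of parent (grey), med21-1002 (red) and med10-1002 (blue). In each row both red points lie beyond both grey points, which was a condition for the choice of these transcripts. PUT4 and ARO10 show the widest gaps.

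The largest rise was in a proline permease gene. PUT4 (YOR348C, chromosome XV, 986720 to 988797, minus strand), which imports proline when preferred nitrogen sources are scarce, stood at 15.0 and 14.7 CPM in the parent libraries and 844 and 882 CPM in the med21-1002 libraries. The groups were far apart, and the libraries of each group lay close together. PUT4 rose 58.2-fold (log2 fold change 5.86, SE 0.10, adjusted p = 4.1e-12). PYK2, a minor pyruvate kinase gene that begins 159 bases beyond the end of PUT4, stood at 93.1 and 90.7 CPM in parent and 240.5 and 243 in med21-1002 (log2 fold change 1.40, SE 0.08, adjusted p = 2.1e-07). Both neighbours were higher in each mutant library than in either parent library. Of the genes for proline and nitrogen catabolism, 8 of 30 tested members rose and 8 fell (median log2 fold change -0.11, and 4 rose and 2 fell with all 8 libraries). With 1 library left out, 6 rose and 5 fell without parent replicate 1, 4 rose and 3 fell without parent replicate 2, 5 rose and 5 fell without med10-1002 replicate 1, and 5 rose and 5 fell without med10-1002 replicate 2. The general amino acid permease gene GAP1 stood at 144 and 124 CPM in parent and 419 and 454 in med21-1002, and GDH1, which makes glutamate from ammonium, at 193 and 175 CPM in parent and 371 and 349 in med21-1002. They rose 3.26-fold and 1.96-fold (adjusted p = 1.3e-07 and 5.5e-06). GAT1, the gene of a GATA activator of nitrogen-regulated genes, fell by 2.96-fold from 355 and 412 CPM to 134 and 125 (log2 fold change -1.56, SE 0.09, adjusted p = 2.1e-07). The permease genes and the activator gene moved in opposite directions.

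Sugar transport genes rose as a group. Of the hexose transporter list, 8 of 9 tested members rose and 0 fell (median log2 fold change 1.11). The list also holds MAL11, a gene for transport of other sugars. Over all tested transcripts, 14.8% rose. HXT4 (YHR092C, chromosome VIII, 287023 to 288886, minus strand), an intermediate to high affinity glucose transporter gene, stood at 107 and 102 CPM in the parent libraries and 958 and 1197 CPM in the med21-1002 libraries and rose 10.3-fold (log2 fold change 3.37, SE 0.12, adjusted p = 3.3e-09). HXT2, another transporter gene used at low glucose, stood at 329 and 312 CPM in parent and 949.8 and 1006 in med21-1002 and rose 3.05-fold (log2 fold change 1.61, SE 0.09, adjusted p = 1.6e-07). HXT7 and HXT6, the high affinity pair, stood at 29.6 and 32.7 CPM in parent and 273 and 342 in med21-1002, and at 21.6 and 23.4 CPM in parent and 102 and 133 in med21-1002. These genes are nearly identical, so the split of reads between them is uncertain. Both members of the pair were higher in each mutant library than in either parent library. The low affinity genes changed less: HXT1 stood at 1781 and 1570.5 CPM in parent and 2676 and 3190.2 in med21-1002 (log2 fold change 0.81, SE 0.11, adjusted p = 2.1e-04), and HXT3 at 1498 and 1358 CPM in parent and 1672 and 1858 in med21-1002 (log2 fold change 0.31, SE 0.10, adjusted p = 0.041). Leaving out 1 library ended the call of HXT3 (without parent 1, parent 2, med21-1002 2, med10-1002 1 and med10-1002 2, adjusted p from 0.062 to 0.35). GAL2, the galactose transporter gene, rose as well (log2 fold change 0.95, SE 0.24, adjusted p = 0.011), and leaving out 1 library ended the call of GAL2 (without parent 2, adjusted p = 0.13). MAL11, an alpha-glucoside transporter gene on the same list, rose 2.16-fold (log2 fold change 1.11, SE 0.11, adjusted p = 1.0e-05). MTH1, whose product holds HXT genes repressed when glucose is absent, rose as well, from 81.7 and 83.3 to 134 and 134 CPM (log2 fold change 0.70, SE 0.08, adjusted p = 6.7e-05).

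Genes of the general stress programme, which the activators Msn2 and Msn4 switch on through stress response elements, were higher in the mutant. Of the list, 26 of 42 tested members rose and 2 fell (median log2 fold change 0.68, and 19 rose and 1 fell with all 8 libraries). CTT1 (YGR088W, chromosome VII, 654609 to 656408, plus strand), the gene of cytosolic catalase, stood at 44.6 and 39.3 CPM in the parent libraries and 297 and 349.9 CPM in the med21-1002 libraries and rose 7.69-fold (log2 fold change 2.94, SE 0.11, adjusted p = 4.4e-09). HSP26, a small heat shock chaperone gene, stood at 48.8 and 40.8 CPM in parent and 199.9 and 288 in med21-1002 (log2 fold change 2.44, SE 0.16, adjusted p = 3.9e-07). DDR2, a multistress response gene, stood at 5.61 and 4.97 CPM in parent and 27.7 and 46.4 in med21-1002 (log2 fold change 2.80, SE 0.27, adjusted p = 1.2e-05). In these genes med21-1002 library 2 was higher than library 1, and both stood clear of the parent. Genes of glycogen synthesis were among them: GSY1, a glycogen synthase gene, rose 4.71-fold from 52.7 ± 3.63 to 248 ± 53.1 CPM (mean ± SD, n = 2, adjusted p = 2.2e-07), and GLC3, the branching enzyme gene, rose 4.49-fold from 107 ± 8.54 to 482 ± 121 CPM (mean ± SD, n = 2, adjusted p = 4.9e-07). MGA1, whose product resembles heat shock transcription factors, rose 4.39-fold from 113 ± 14.3 to 495 ± 18.0 CPM (mean ± SD, n = 2, adjusted p = 5.0e-08). HSP12, a membrane stress protein gene named here after its values were seen, stood at 1.78 and 1.90 CPM in parent and 21.5 and 25.4 in med21-1002 and lay under the level set for named transcripts. The members that fell were GND2 and HSP42, also named after their values were seen (log2 fold changes -0.68 and -0.58), and leaving out 1 library ended the call of GND2 (without parent 1, parent 2, med10-1002 1 and med10-1002 2, adjusted p from 0.062 to 0.18). The spread of these lists around their medians is shown in the plot of gene groups.

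**Figure D2:**
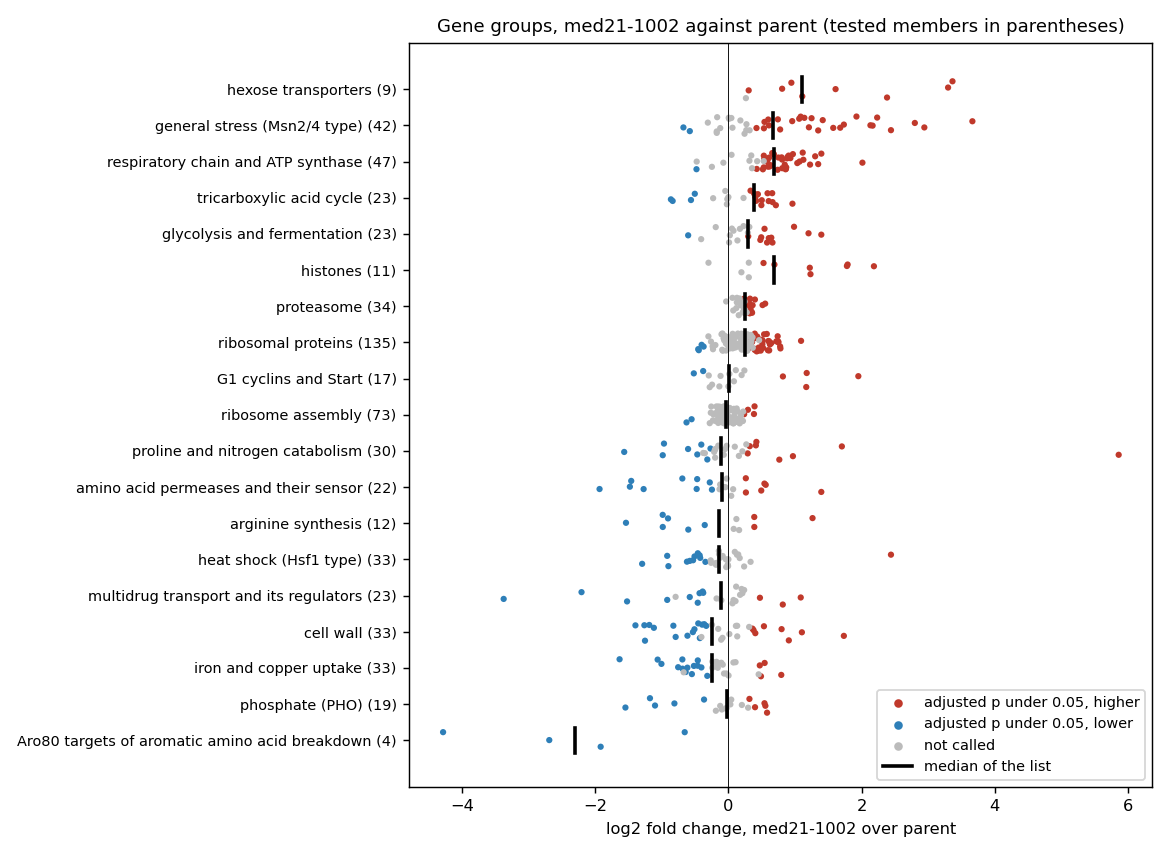
Log2 fold change of each tested member of 19 gene groups in med21-1002 over parent; red and blue points passed edgeR at an adjusted p under 0.05 (higher and lower), grey points did not, and black bars are group medians. The hexose transporters, stress, respiratory and histone groups lie mostly to the right of 0, and the 4 Aro80 targets all lie to the left.

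Genes for respiration rose, as did the gene of a regulator of their expression. HAP4 (YKL109W, chromosome XI, 231956 to 234032, plus strand), the activating subunit of the Hap complex that promotes respiratory genes, stood at 259.5 and 273 CPM in the parent libraries and 1125 and 1025 CPM in the med21-1002 libraries and rose 4.04-fold (log2 fold change 2.01, SE 0.09, adjusted p = 3.7e-08). Of the genes for the respiratory chain and ATP synthase, 37 of 47 tested members rose and 1 fell (median log2 fold change 0.68, and 21 rose and 0 fell with all 8 libraries). The member that fell was QCR6, of complex III (log2 fold change -0.48, SE 0.16, adjusted p = 0.038), named after its value was seen, and leaving out 1 library ended the call of QCR6 (without parent 1, parent 2, med21-1002 1, med10-1002 1 and med10-1002 2, adjusted p from 0.065 to 0.20). CYT1, the cytochrome c1 gene, stood at 144 and 146 CPM in parent and 304 and 329 in med21-1002, RIP1, the Rieske iron-sulfur protein gene, at 106 and 98.6 CPM in parent and 207 and 222 in med21-1002, and NDE1, an external NADH dehydrogenase gene, at 345 and 313 CPM in parent and 661 and 689 in med21-1002. These genes rose by 2.18-fold, 2.10-fold and 2.05-fold. Of the tricarboxylic acid cycle genes, 13 of 23 tested members rose and 4 fell (median log2 fold change 0.39, and 3 rose and 0 fell with all 8 libraries). MDH1, the mitochondrial malate dehydrogenase gene, rose 1.95-fold and KGD2, of the 2-oxoglutarate dehydrogenase complex, rose 1.64-fold. Falls named after their values were seen were PYC2 (-0.50), IDP3 (-0.84) and CIT3 (-0.86) on the log2 scale, which include a minor citrate synthase gene (CIT3) and a peroxisomal isocitrate dehydrogenase gene (IDP3). When 1 library was omitted, 12 rose and 2 fell without parent replicate 1, and 9 rose and 2 fell without parent replicate 2, which ended the calls of PYC2 (without parent 1, adjusted p = 0.051), IDP3 (without parent 2, adjusted p = 0.079) and CIT3 (without parent 1, parent 2, med21-1002 2, med10-1002 1 and med10-1002 2, adjusted p from 0.055 to 0.23). Of the mitochondrial ribosomal protein genes, 11 of 52 tested members rose and 0 fell (median log2 fold change 0.25, and 3 rose and 0 fell with all 8 libraries), and with 1 library left out, 3 rose and 0 fell without parent replicate 1, 4 rose and 0 fell without parent replicate 2, 25 rose and 0 fell without med21-1002 replicate 1, 6 rose and 0 fell without med10-1002 replicate 1, and 6 rose and 0 fell without med10-1002 replicate 2. Glycolytic genes did not move the other way: 11 of 23 tested members rose and 1 fell (median log2 fold change 0.30, and 2 rose and 1 fell with all 8 libraries), with TDH1, a minor glyceraldehyde-3-phosphate dehydrogenase gene, at 160.3 and 165 CPM in parent and 296 and 349.7 in med21-1002. PDC5, a minor pyruvate decarboxylase gene, was the one that fell, from 119 and 111 to 80.3 and 71.2 CPM. In fits without 1 library, 6 rose and 1 fell without parent replicate 2. The genes of acetate, lactate and glyoxylate use were mixed: 5 of 22 tested members rose and 7 fell (median log2 fold change -0.19, and 3 rose and 2 fell with all 8 libraries). With 1 library left out, 4 rose and 3 fell without parent replicate 1, 3 rose and 2 fell without parent replicate 2, 4 rose and 4 fell without med10-1002 replicate 1, and 5 rose and 4 fell without med10-1002 replicate 2. Among them CYB2, the gene of an L-lactate dehydrogenase, rose 2.75-fold and ATO3, of an ammonium and acetate transporter family, fell 2.31-fold. The other rises were of ALD6 and ALD4, both acetaldehyde dehydrogenase genes, and of DLD1 and DLD2, both D-lactate dehydrogenase genes (log2 fold changes 0.89, 0.65, 0.42 and 0.35). Of these, leaving out 1 library ended the calls of DLD1 (without parent 2, adjusted p = 0.055) and DLD2 (without parent 1, parent 2 and med10-1002 1, adjusted p from 0.051 to 0.21).

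The largest fall was in a gene of aromatic amino acid breakdown. The activator Aro80 binds repeats with paired CCG triplets and turns these genes on when aromatic amino acids are present. All 4 listed targets fell, with a median log2 fold change of -2.30, and the same 4 fell without any one of the 6 libraries. ARO10 (YDR380W, chromosome IV, 1234113 to 1236253, plus strand), the phenylpyruvate decarboxylase gene, stood at 2603 and 2555 CPM in the parent libraries and 168 and 96.0 CPM in the med21-1002 libraries. Both mutant libraries lay far below both parent libraries, and they differed from each other more than the parent libraries did. ARO10 fell 19.5-fold (log2 fold change -4.29, SE 0.21, adjusted p = 5.5e-08). ARO9 (YHR137W, chromosome VIII, 375679 to 377364, plus strand), the aromatic aminotransferase II gene, stood at 1110.4 and 1091 CPM in parent and 188 and 152 in med21-1002 and fell 6.45-fold (log2 fold change -2.69, SE 0.11, adjusted p = 1.2e-08). ESBP6 (YNL125C, chromosome XIV, 390049 to 392343, minus strand), which resembles monocarboxylate permease genes, stood at 1482 and 1544 CPM in parent and 424 and 376 in med21-1002 and fell 3.78-fold (log2 fold change -1.92, SE 0.10, adjusted p = 6.5e-08). NAF1, a gene for assembly of small nucleolar ribonucleoproteins, is transcribed away from ESBP6 across 520 bases and fell alike, from 467 and 528 CPM to 155 and 127 (log2 fold change -1.81, SE 0.11, adjusted p = 2.1e-07). ARO80 itself fell 1.58-fold (log2 fold change -0.66, SE 0.09, adjusted p = 2.2e-04), a call that did not pass with all 8 libraries in the fit (adjusted p = 0.075). Among genes that make aromatic amino acids, 1 of 12 tested members rose and 2 fell (median log2 fold change 0.07, and 0 rose and 0 fell with all 8 libraries), namely TRP4 up and ARO3 and ARO4 down (0.32, -0.46 and -0.42). The shares, 8.33% and 16.7%, compare with 14.8% and 14.9% of all tested transcripts. ARO3 and ARO4 encode the enzymes of the entry step and TRP4 an enzyme of tryptophan synthesis, and leaving out 1 library ended the calls of TRP4 (without parent 1 and parent 2, adjusted p from 0.076 to 0.11) and ARO4 (without parent 1, adjusted p = 0.058).

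The promoters of the 4 listed targets, ARO10, ARO9, ESBP6 and ARO80, share a sequence feature, which is shown for the 3 with the largest falls. NAF1, which is not on the list, held 0 matches in its own 250 bases. The following 250 bases end at the base before the annotated transcript start, were read from the R64 genome of RefSeq on the strand of the gene, and carry each match to CCGNNNNNNNCCG on either strand in capitals. The stretches are chrIV:1233863-1234112, plus strand for ARO10, chrVIII:375429-375678, plus strand for ARO9, and chrXIV:392344-392593, minus strand for ESBP6.
ARO10: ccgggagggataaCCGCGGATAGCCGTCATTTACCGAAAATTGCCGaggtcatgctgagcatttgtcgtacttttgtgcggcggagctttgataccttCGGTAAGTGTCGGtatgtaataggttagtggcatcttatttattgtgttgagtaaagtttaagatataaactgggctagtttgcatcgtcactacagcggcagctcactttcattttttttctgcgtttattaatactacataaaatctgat
ARO9: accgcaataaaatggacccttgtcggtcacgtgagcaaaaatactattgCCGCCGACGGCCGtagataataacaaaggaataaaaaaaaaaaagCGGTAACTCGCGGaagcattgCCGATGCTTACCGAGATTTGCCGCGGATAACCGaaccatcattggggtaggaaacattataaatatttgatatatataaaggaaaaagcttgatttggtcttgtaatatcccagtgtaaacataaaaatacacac
ESBP6: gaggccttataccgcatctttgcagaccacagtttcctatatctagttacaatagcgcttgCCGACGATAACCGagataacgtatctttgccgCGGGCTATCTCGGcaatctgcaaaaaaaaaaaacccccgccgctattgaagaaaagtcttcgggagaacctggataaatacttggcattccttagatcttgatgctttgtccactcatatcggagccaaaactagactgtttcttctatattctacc
The motif was searched after the values were seen, in windows from 250 bases before to 50 bases after the annotated start. All 4 Aro80 targets held it, as did 157 of 4897 tested coding transcripts (3.21%). Among coding transcripts that fell at least 2-fold, 10 of 109 held it (9.17%). At least 3 matches stood in 3 windows, of which 2, those of ARO10 and ARO9, belonged to transcripts that fell. A match is not a bound site.

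Transport and synthesis genes for other amino acids moved in both directions. Of the amino acid permease and sensor genes, 6 of 22 tested members rose and 9 fell (median log2 fold change -0.10, and 2 rose and 5 fell with all 8 libraries). SAM3, the S-adenosylmethionine permease gene, stood at 1093 and 1022 CPM in the parent libraries and 268 and 285 CPM in the med21-1002 libraries (log2 fold change -1.94, SE 0.09, adjusted p = 5.0e-08), and MMP1, the S-methylmethionine permease gene, at 932 and 827 CPM in parent and 324 and 316 in med21-1002 (log2 fold change -1.46, SE 0.09, adjusted p = 3.6e-07). TAT1, a tyrosine and valine permease gene, was higher in both mutant libraries, at 183 and 183 CPM in parent and 494 and 469.7 in med21-1002 (log2 fold change 1.40, SE 0.08, adjusted p = 2.1e-07). The group had no common direction. MXR1, a methionine sulfoxide reductase gene that overlaps SAH1 on the opposite strand, fell 3.64-fold from 168 ± 1.85 to 46.2 ± 1.55 CPM (mean ± SD, n = 2, adjusted p = 6.1e-08). In arginine synthesis, 3 of 12 tested members rose and 6 fell (median log2 fold change -0.14, and 1 rose and 5 fell with all 8 libraries). The rises were ARG1 (1.26), ARG8 (0.39) and ARG3 (0.39) on the log2 scale, and leaving out 1 library ended the calls of ARG8 (without parent 1 and parent 2, adjusted p from 0.092 to 0.11) and ARG3 (without parent 1 and parent 2, adjusted p from 0.11 to 0.15), so that 1 rose and 5 fell without parent replicate 1, and 1 rose and 5 fell without parent replicate 2. ARG1, the argininosuccinate synthetase gene, rose from 82.6 and 89.1 to 221 and 191 CPM, whereas ARG4, of the next step, fell 1.98-fold from 733 ± 14.2 to 370.4 ± 1.36 CPM (mean ± SD, n = 2, adjusted p = 5.9e-06). In branched-chain synthesis LEU2, the isopropylmalate dehydrogenase gene listed as mutant in the genotype, rose 2.66-fold from 66.5 ± 2.13 to 177 ± 0.0962 CPM (mean ± SD, n = 2, adjusted p = 2.1e-07), and BAT2, the cytosolic branched-chain aminotransferase gene, fell 2.34-fold from 415 ± 16.1 to 177 ± 17.1 CPM (mean ± SD, n = 2, adjusted p = 1.3e-06).

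Falls were also large in several transporter genes and in IMD2, a gene of guanine nucleotide synthesis. SEO1 (YAL067C, chromosome I, 7013 to 9049, minus strand), a putative permease gene near the left end of chromosome I, stood at 299.8 and 282 CPM in the parent libraries and 29.6 and 26.3 CPM in the med21-1002 libraries and fell 10.4-fold (log2 fold change -3.38, SE 0.10, adjusted p = 5.1e-10). QDR2, a multidrug transporter gene, stood at 77.3 and 73.7 CPM in parent and 16.7 and 15.9 in med21-1002, and ATR1, a multidrug efflux gene, at 1518 and 1429 CPM in parent and 478 and 548 in med21-1002. They fell 4.61-fold and 2.87-fold. Of the multidrug transport list, 3 of 23 tested members rose and 9 fell (median log2 fold change -0.11), and the rises were RSB1 (1.09), TPO3 (0.82) and FLR1 (0.47) on the log2 scale. RSB1 moves sphingoid bases, TPO3 polyamines and FLR1 drugs, and leaving out 1 library ended the call of FLR1 (without parent 1 and parent 2, adjusted p from 0.063 to 0.10). Here 7 rose and 9 fell without med21-1002 replicate 2. IMD2 (YHR216W, chromosome VIII, 554290 to 556157, plus strand), an inosine monophosphate dehydrogenase gene, stood at 66.3 and 58.5 CPM in the parent libraries and 4.26 and 8.66 CPM in the med21-1002 libraries and fell 9.93-fold (log2 fold change -3.31, SE 0.23, adjusted p = 6.2e-07). Of the list for guanine nucleotide synthesis, 0 of 7 tested members rose and 3 fell (median log2 fold change -0.13, and 0 rose and 1 fell with all 8 libraries). The relatives of IMD2 changed less, with log2 fold changes of -0.36 for IMD3 (adjusted p = 0.021) and 0.12 for IMD4 (adjusted p = 0.53), and leaving out 1 library ended the call of IMD3 (without parent 1 and parent 2, adjusted p from 0.052 to 0.18). The other member that fell was HPT1, a guanine salvage gene (log2 fold change -0.42, SE 0.13, adjusted p = 0.024). Its call was lost in the same way: HPT1 (without parent 1, parent 2, med21-1002 2, med10-1002 1 and med10-1002 2, adjusted p from 0.051 to 0.15). IMD2 and its relatives are close copies, so part of their reads may be assigned to another copy. ZRT1, the high affinity zinc transporter gene, fell 3.21-fold from 105 ± 1.53 to 32.6 ± 1.51 CPM (mean ± SD, n = 2, adjusted p = 2.1e-07). PRY3, a cell wall associated protein gene, fell 3.68-fold from 259 ± 35.2 to 70.2 ± 14.4 CPM (mean ± SD, n = 2, adjusted p = 7.6e-07). The uncharacterised YHR022C stood at 29.5 and 27.5 CPM in parent and 7.51 and 9.21 in med21-1002, and YDR215C, which lies opposite AHA1, stood at 19.2 and 36.4 CPM in parent and 9.99 and 6.66 in med21-1002. The YDR215C call did not pass with all 8 libraries in the fit (adjusted p = 0.11).

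Several cyclin and histone genes changed, and members of the Start and mitotic lists were called in both directions. Of all transcripts, 14.8% rose and 14.9% fell. CLN1 (YMR199W, chromosome XIII, 662446 to 664402, plus strand), a G1 cyclin gene, stood at 83.1 and 78.4 CPM in the parent libraries and 342 and 283 CPM in the med21-1002 libraries and rose 3.87-fold (log2 fold change 1.95, SE 0.10, adjusted p = 8.5e-08). CLN3, the most upstream G1 cyclin gene, stood at 695 and 739.5 CPM in parent and 1325 and 1206 in med21-1002 (log2 fold change 0.82, SE 0.09, adjusted p = 3.5e-05), and PCL2, a cyclin gene of the Pho85 kinase, at 17.1 and 17.8 CPM in parent and 42.1 and 36.3 in med21-1002 (log2 fold change 1.17, SE 0.14, adjusted p = 5.8e-05). Of the list for Start, 4 of 17 tested members rose and 2 fell (median log2 fold change 0.01, and 4 rose and 0 fell with all 8 libraries), or 23.5% and 11.8%. The rises were of cyclin genes, CLN1 (1.95), CLN3 (0.82), PCL2 (1.17) and PCL1 (1.18) on the log2 scale, and the falls were of the regulator genes BCK2 (-0.52) and NRM1 (-0.38), and leaving out 1 library ended the call of NRM1 (without parent 1, parent 2, med21-1002 2, med10-1002 1 and med10-1002 2, adjusted p from 0.067 to 0.34). Here 4 rose and 4 fell without med21-1002 replicate 1. Of the mitotic list, 5 of 19 tested members rose and 4 fell (median log2 fold change 0.12, and 2 rose and 1 fell with all 8 libraries), or 26.3% and 21.1%. When 1 library was omitted, 2 rose and 3 fell without parent replicate 1, 3 rose and 2 fell without parent replicate 2, 3 rose and 3 fell without med10-1002 replicate 1, and 3 rose and 3 fell without med10-1002 replicate 2. CLB1 and CLB2, both mitotic cyclin genes, moved apart: CLB1 stood at 105 and 107 CPM in parent and 45.0 and 42.6 in med21-1002 (log2 fold change -1.28, SE 0.10, adjusted p = 1.6e-06), and CLB2 at 174 and 163 CPM in parent and 241 and 237 in med21-1002 (log2 fold change 0.51, SE 0.08, adjusted p = 5.6e-04). The other calls of this list were SWI5 (0.45), SWE1 (0.43), CDC5 (0.25), FKH1 (0.29), ASE1 (-0.43), FKH2 (-0.37) and CDC20 (-0.26) on the log2 scale, and leaving out 1 library ended those of SWE1 (without parent 1, adjusted p = 0.082), CDC5 (without parent 1, parent 2, med10-1002 1 and med10-1002 2, adjusted p from 0.081 to 0.31), FKH1 (without parent 1, parent 2, med10-1002 1 and med10-1002 2, adjusted p from 0.082 to 0.22), FKH2 (without parent 2, adjusted p = 0.090) and CDC20 (without parent 1, parent 2, med10-1002 1 and med10-1002 2, adjusted p from 0.076 to 0.22). Of the histone genes, 7 of 11 tested members rose and 0 fell (median log2 fold change 0.69). HTA2, of histone H2A, stood at 19.2 and 17.6 CPM in parent and 75.9 and 92.0 in med21-1002, HHT1, of histone H3, at 47.0 and 45.2 CPM in parent and 127 and 193 in med21-1002, and HHF1, of histone H4, at 73.9 and 67.5 CPM in parent and 194 and 293 in med21-1002. Of their paired copies, HHF2 rose by a log2 fold change of 1.23, while HTA1 and HHT2 did not pass (0.31 and 0.31, adjusted p = 0.058 and 0.11). The copies are alike in sequence, which makes the split uncertain.

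Cell wall genes moved in both directions. Of the list, 8 of 33 tested members rose and 15 fell (median log2 fold change -0.25, and 2 rose and 8 fell with all 8 libraries). In fits without 1 library, 5 rose and 13 fell without parent replicate 1, and 5 rose and 11 fell without parent replicate 2. DSE2 and DSE4, daughter-specific glucanase genes used to separate cells after division, stood at 363 and 377 CPM in parent and 166 and 142 in med21-1002, and at 581 and 588 CPM in parent and 273 and 240.0 in med21-1002. They fell 2.40-fold and 2.28-fold. NCW2, a wall protein gene, fell 2.63-fold from 167 ± 17.3 to 63.5 ± 3.55 CPM (mean ± SD, n = 2, adjusted p = 7.8e-07). TIP1, a mannoprotein gene, went up instead, 2.15-fold from 346 ± 14.2 to 744 ± 26.9 CPM (mean ± SD, n = 2, adjusted p = 1.5e-06). NCA3, of the SUN family, stood at 35.8 and 43.2 CPM in the parent libraries and 266 and 207 CPM in the med21-1002 libraries and rose 5.99-fold (log2 fold change 2.58, SE 0.13, adjusted p = 6.5e-08), whereas SUN4, a wall protein gene of that family, fell 1.44-fold from 483 ± 3.16 to 335 ± 28.7 CPM (mean ± SD, n = 2, adjusted p = 7.6e-04). The SUN4 call did not pass with all 8 libraries (adjusted p = 0.093). The other genes listed with NCA3 and SUN4 rose far less than NCA3: SIM1 (0.44), UTH1 (0.42) and NCA2 (0.39) on the log2 scale. The calls of SIM1 and NCA2 ended without parent 2 (log2 fold changes 0.41 and 0.37). That of UTH1 ended without parent 1 and without parent 2 (0.44 and 0.41). HMS1, a helix-loop-helix regulator gene of filamentous growth, rose 5.15-fold from 20.9 ± 3.91 to 107 ± 1.88 CPM (mean ± SD, n = 2, adjusted p = 2.1e-07), and SPS4, a gene induced in sporulation, rose 5.80-fold from 4.21 ± 0.450 to 24.5 ± 2.32 CPM (mean ± SD, n = 2, adjusted p = 5.1e-07).

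Chaperone and metal uptake genes that changed were mostly lower. Of the genes of the Hsf1 heat shock programme, 1 of 33 tested members rose and 11 fell (median log2 fold change -0.14, and 1 rose and 6 fell with all 8 libraries). The rise was of HSP26, which is also on the general stress list. With 1 library left out, 1 rose and 7 fell without parent replicate 2, and 3 rose and 12 fell without med21-1002 replicate 1. CUR1, a protein sorting factor gene, stood at 454 and 443 CPM in parent and 184 and 181 in med21-1002 (log2 fold change -1.30, SE 0.08, adjusted p = 3.8e-07), and AHA1, an Hsp90 cochaperone gene, at 1023 and 1033 CPM in parent and 554 and 534 in med21-1002 (log2 fold change -0.92, SE 0.08, adjusted p = 7.0e-06). HSC82, the constitutive Hsp90 gene, did not pass (log2 fold change 0.13, SE 0.11, adjusted p = 0.40). Of the iron and copper uptake genes, 4 of 33 tested members rose and 14 fell (median log2 fold change -0.24, and 1 rose and 9 fell with all 8 libraries). TIS11, whose product degrades mRNAs when iron is short, stood at 146 and 166 CPM in parent and 52.3 and 48.0 in med21-1002 (log2 fold change -1.63, SE 0.11, adjusted p = 7.0e-07), and FRE3, a siderophore reductase gene, at 260.2 and 271 CPM in parent and 135 and 119 in med21-1002 (log2 fold change -1.06, SE 0.09, adjusted p = 3.1e-06). The rises on this list were HMX1 (0.79), FET3 (0.54), FIT3 (0.49) and FIT2 (0.47) on the log2 scale, of which FET3 encodes the copper oxidase of iron uptake and HMX1 a haem oxygenase. Leaving out 1 library ended the calls of FIT3 (without parent 1, adjusted p = 0.075) and FIT2 (without parent 1, parent 2, med21-1002 1, med10-1002 1 and med10-1002 2, adjusted p from 0.062 to 0.32), and 2 rose and 11 fell without parent replicate 1. Of the phosphate genes, 5 of 19 tested members rose and 5 fell (median log2 fold change -0.02, and 0 rose and 3 fell with all 8 libraries). PHO4, the activator gene, stood at 151 and 172 CPM in parent and 54.4 and 56.4 in med21-1002, and PHO89, a phosphate transporter gene, at 575 and 581 CPM in parent and 286 and 252 in med21-1002. The other falls were PHO5 (-1.18), PHO90 (-0.37) and SPL2 (-0.81) on the log2 scale, and the rises were PHO86 (0.56), PHO87 (0.54), GIT1 (0.58), VTC4 (0.40) and VTC3 (0.32). Leaving out 1 library ended the calls of VTC4 (without parent 2, adjusted p = 0.21), VTC3 (without parent 1, parent 2, med21-1002 1, med10-1002 1 and med10-1002 2, adjusted p from 0.063 to 0.31), PHO90 (without parent 2, adjusted p = 0.090) and SPL2 (without parent 1, adjusted p = 0.094), so that 3 rose and 4 fell without parent replicate 2. In phospholipid synthesis, OPI3, a methyltransferase gene, and ITR1, an inositol transporter gene, fell 2.67-fold and 1.85-fold.

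The machinery of protein synthesis and breakdown showed small shifts. Of the ribosomal protein genes, 43 of 135 tested members rose and 4 fell (median log2 fold change 0.25, and 7 rose and 0 fell with all 8 libraries), and of the proteasome genes, 18 of 34 tested members rose and 0 fell (median log2 fold change 0.25, and 2 rose and 0 fell with all 8 libraries). When 1 library was omitted, 29 rose and 0 fell without parent replicate 1, 19 rose and 3 fell without parent replicate 2, 74 rose and 6 fell without med21-1002 replicate 1, and 44 rose and 9 fell without med21-1002 replicate 2. For the proteasome, 4 rose and 0 fell without parent replicate 1, 2 rose and 0 fell without parent replicate 2, 7 rose and 0 fell without med10-1002 replicate 1, and 7 rose and 0 fell without med10-1002 replicate 2. RPS9A, a small subunit protein gene, stood at 105 and 102 CPM in parent and 181 and 174 in med21-1002, and RPN8, of the proteasome lid, at 114 and 119 CPM in parent and 159 and 183 in med21-1002. The falls among ribosomal protein genes were RPS11A (-0.40), RPS14B (-0.44), RPL8A (-0.37) and RPL22B (-0.45) on the log2 scale, and leaving out 1 library ended the calls of RPS11A (without parent 1, adjusted p = 0.17), RPS14B (without parent 1, adjusted p = 0.18), RPL8A (without parent 1, adjusted p = 0.30) and RPL22B (without parent 1, parent 2, med21-1002 2, med10-1002 1 and med10-1002 2, adjusted p from 0.064 to 0.21). Many of these genes have near-identical copies, so counts for single copies are uncertain. Genes for ribosome assembly did not follow: 4 of 73 tested members rose and 2 fell (median log2 fold change -0.03, and 0 rose and 1 fell with all 8 libraries). The shares, 5.48% and 2.74%, lie under the 14.8% and 14.9% of all tested transcripts. In fits without 1 library, 1 rose and 2 fell without parent replicate 1, 0 rose and 2 fell without parent replicate 2, 6 rose and 20 fell without med21-1002 replicate 1, 17 rose and 6 fell without med21-1002 replicate 2, 2 rose and 2 fell without med10-1002 replicate 1, and 2 rose and 2 fell without med10-1002 replicate 2. The members called were RRP3 (0.39), NOP56 (0.38), NHP2 (0.29) and NOP2 (0.24), and REI1 (-0.55) and DBP8 (-0.63), and leaving out 1 library ended the calls of RRP3 (without parent 2, adjusted p = 0.061), NOP56 (without parent 1 and parent 2, adjusted p from 0.057 to 0.094), NHP2 (without parent 1, parent 2, med10-1002 1 and med10-1002 2, adjusted p from 0.089 to 0.25) and NOP2 (without parent 1, parent 2, med10-1002 1 and med10-1002 2, adjusted p from 0.091 to 0.25). Of genes for RNA polymerase II and its general factors, 4 of 41 tested members rose and 1 fell (median log2 fold change 0.06, and 0 rose and 0 fell with all 8 libraries). They were RPB2 (0.35), TOA2 (0.66), TFA1 (0.26) and RPB7 (0.27), and TAF7 (-0.32). The shares for this list, 9.76% and 2.44%, also lie under those of all tested transcripts. With 1 library left out, 0 rose and 1 fell without parent replicate 1, 0 rose and 0 fell without parent replicate 2, 15 rose and 2 fell without med21-1002 replicate 1, 3 rose and 5 fell without med21-1002 replicate 2, 1 rose and 1 fell without med10-1002 replicate 1, and 1 rose and 1 fell without med10-1002 replicate 2.

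Stress response elements stood in a larger share of the promoters of genes that rose. Windows from 250 bases before to 50 bases after the annotated start of 4897 tested coding transcripts were searched on both strands. AGGGG, the stress response element, stood in 53.8% of the 93 windows of transcripts that rose at least 2-fold. It stood in 12.8% of the 109 that fell at least 2-fold and in 21.7% of all windows. The share of transcripts that rose was 14.4% with no element, 22.7% with 1, 38.0% with 2 and 51.5% with at least 3 (n = 3833, 894, 137 and 33). The share that fell did not follow this order, with 14.1%, 10.6%, 10.2% and 12.1%. These shares are a description and were not tested. The element is a property of the general stress list, of which 33 of 42 windows hold it. It is shown in capitals for 3 genes of that list with large rises, in the 250 bases before the start (R64 genome of RefSeq, strand of the gene). The stretches are chrXV:231789-232038, minus strand for DDR2, chrVII:654359-654608, plus strand for CTT1, and chrV:132839-133088, plus strand for GLC3.
DDR2: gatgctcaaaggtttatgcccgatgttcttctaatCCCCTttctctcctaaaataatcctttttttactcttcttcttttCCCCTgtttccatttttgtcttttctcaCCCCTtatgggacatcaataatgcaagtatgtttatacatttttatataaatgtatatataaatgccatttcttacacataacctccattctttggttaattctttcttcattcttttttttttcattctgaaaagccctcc
CTT1: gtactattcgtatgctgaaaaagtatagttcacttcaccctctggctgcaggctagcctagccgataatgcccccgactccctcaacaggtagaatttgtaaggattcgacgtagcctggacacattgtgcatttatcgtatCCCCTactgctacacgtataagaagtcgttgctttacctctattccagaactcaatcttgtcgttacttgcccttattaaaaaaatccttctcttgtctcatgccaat
GLC3: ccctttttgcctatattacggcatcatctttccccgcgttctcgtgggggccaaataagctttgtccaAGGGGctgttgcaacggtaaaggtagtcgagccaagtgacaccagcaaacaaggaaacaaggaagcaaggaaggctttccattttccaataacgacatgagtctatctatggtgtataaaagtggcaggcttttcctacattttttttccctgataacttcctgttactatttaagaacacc
DDR2 held 3 elements in this stretch, CTT1 held 1 and GLC3 held 1, while HSP26 held 0. CCCCAC, the core bound by the glucose repressor Mig1, which has the same run of C as CCCCT, the opposite strand of AGGGG, stood in 12.9%, 2.75% and 4.49% of the same 3 sets. TGACTC, bound by Gcn4, stood in 2.15%, 11.9% and 8.19%. TATAAA stood in 50.5%, 49.5% and 45.2%, and the shares for GATAAG (nitrogen activators), CGGANNA (Rgt1), TTCNNGAA (Hsf1), CACGTG (Cbf1 and Pho4), GATGAG (PAC) and CCAAT (Hap) are shown in the plot of motif shares.

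**Figure D3:**
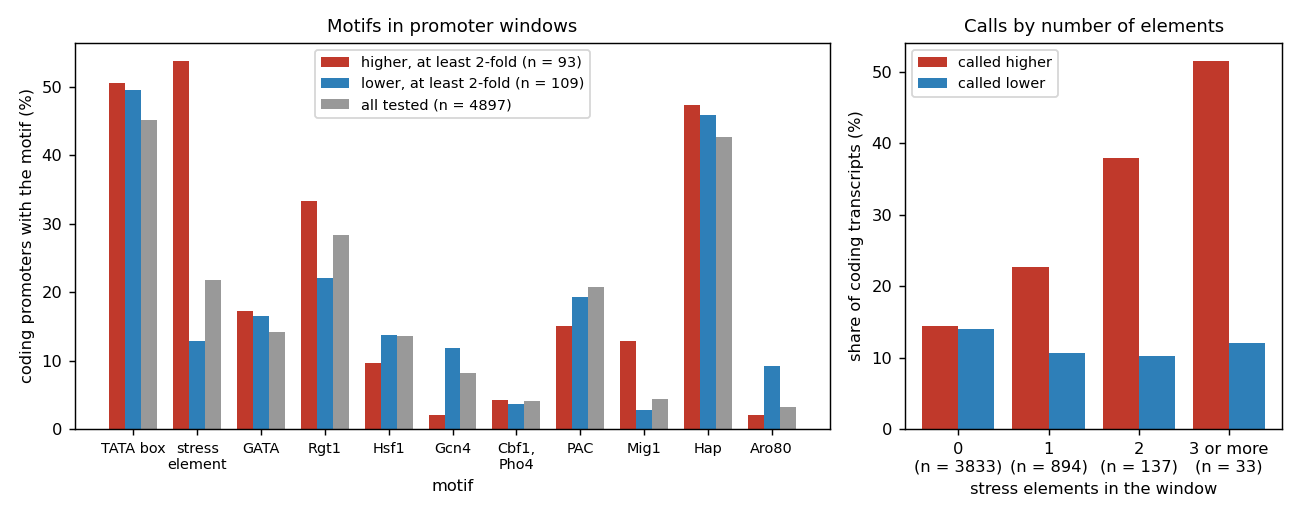
Left, share of coding promoter windows (%) that hold each of 11 motifs, among transcripts at least 2-fold higher (red, n = 93), at least 2-fold lower (blue, n = 109) and all tested (grey, n = 4897); right, share of coding transcripts called higher (red) or lower (blue) by the number of stress elements in the window. The stress element stands at 53.8% against 21.7% of all windows, and the red bars climb with its number.

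Noncoding transcripts were lower in the mutant. The annotation has 3 noncoding classes, named by their stability: SUTs (stable), XUTs (degraded by the exonuclease Xrn1) and CUTs (cryptic, degraded in the nucleus), which arise largely from divergent or antisense start sites and are degraded at different rates. Of 369 SUTs tested, 12 rose and 120 fell (median log2 fold change -0.44). Of 334 XUTs, 6 rose and 63 fell (median -0.41), and of 101 CUTs, 1 rose and 15 fell (median -0.58). The share that fell was 32.5% of SUTs, 18.9% of XUTs and 14.9% of CUTs, against 14.9% of all tested transcripts. The share that rose was 3.25%, 1.80% and 0.990%, against 14.8%. The falls of CUTs were thus no more frequent than over all transcripts, and those of XUTs were little more so. For these classes the lower position rests on the medians and the few rises. Of 4897 coding transcripts, 825 rose and 652 fell (median 0.04). When 1 library was omitted, 6 rose and 81 fell without parent replicate 1, and 10 rose and 55 fell without parent replicate 2 among SUTs. Of XUTs, 5 rose and 24 fell without parent replicate 2. Of CUTs, 0 rose and 1 fell without parent replicate 2, 0 rose and 7 fell without med10-1002 replicate 1, and 0 rose and 7 fell without med10-1002 replicate 2. Of coding transcripts, 447 rose and 393 fell without parent replicate 1, and 340 rose and 337 fell without parent replicate 2. With all 8 libraries in the fit, 4 rose and 27 fell among SUTs, 4 rose and 5 fell among XUTs, 0 rose and 1 fell among CUTs and 215 rose and 192 fell among coding transcripts. The CUT that rose was CUT153, from 0.378 and 0.223 to 0.964 and 1.10 CPM (log2 fold change 1.74, SE 0.56, adjusted p = 0.035), named after its value was seen, and leaving out 1 library ended the call of CUT153 (without parent 1, parent 2, med21-1002 1, med21-1002 2, med10-1002 1 and med10-1002 2, adjusted p from 0.054 to 0.21). SUTs took 0.626% and 0.682% of the counts in the parent libraries and 0.484% and 0.473% in the med21-1002 libraries. SUT116 (chromosome VII, 362189 to 364049), which lies opposite the choline transporter gene HNM1, stood at 14.2 and 21.7 CPM in parent and 3.90 and 3.78 in med21-1002 and fell 4.65-fold (log2 fold change -2.22, SE 0.22, adjusted p = 1.3e-05). SUT406, opposite RLM1, stood at 49.9 and 56.7 CPM in parent and 12.9 and 14.9 in med21-1002 (log2 fold change -1.94, SE 0.13, adjusted p = 5.6e-07). Among rises, XUT_7R-269, opposite SCM4, stood at 5.67 and 7.65 CPM in parent and 19.9 and 33.9 in med21-1002, and SUT065, opposite MTH1, at 24.9 and 18.1 CPM in parent and 65.4 and 84.3 in med21-1002. SUT065 did not pass with all 8 libraries (adjusted p = 0.052). MTH1 rose as well. The strand setting of the counter is not given in the sources used here, so reads of overlapping partners may not have been told apart. Reads set aside as ambiguous were few, from 0.0987% to 0.1925% in the 6 libraries of the fit. In the annotation, 1692 coding transcripts are overlapped by a coding transcript on the opposite strand. Whether the counting kept the strands apart was not tested. The other rises of the largest size were SUT053 (1.84), XUT_15R-403 (1.38), SUT738 (1.32) and XUT_4R-468 (1.28) on the log2 scale, of which XUT_15R-403 lies opposite FAA1, an acyl-CoA synthetase gene that rose (0.73). The other falls of the largest size were SUT148 (-1.60), XUT_8F-92 (-1.56), SUT342 (-1.53) and SUT034 (-1.50), of which SUT148 lies opposite NPR3. Partner genes of the falling transcripts differed: HNM1 stood at 243 and 215 CPM in parent and 220.3 and 207 in med21-1002 (log2 fold change -0.10, adjusted p = 0.42), and RLM1 at 349 and 406 CPM in parent and 287 and 235 in med21-1002 (log2 fold change -0.53, adjusted p = 0.0032). Of the 198 noncoding transcripts that fell, 124 lie opposite a tested coding transcript, and of these partners 25 rose and 41 fell (median -0.07). The partners of all 501 paired noncoding transcripts rose in 107 and fell in 106 cases.

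Coding transcripts near chromosome ends were lower as well. Of 90 tested within 20 kb of an end, 15 rose and 44 fell (48.9%, median log2 fold change -0.37). Farther from the ends, 810 of 4807 rose and 608 fell (12.6%, median 0.04). In fits without 1 library, 6 rose and 32 fell without parent replicate 1, and 6 rose and 33 fell without parent replicate 2. With all 8 libraries 4 rose and 24 fell. SEO1 and IMD2 are among the transcripts near an end. Within 10 kb, 14 of 23 fell (median -0.41), and from 20 to 40 kb, 52 of 221 (median -0.05). Low level moves with both groups: in the lowest of 4 equal bins of parent level, the median was -0.22 and 224 of 1426 fell, and its part in these results was not tested. Span also moves with the libraries: over transcripts of at most 500 nt, the median relative to the parent mean was -0.26 in med21-1002 library 1 and 0.07 in library 2.

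**Figure D4:**
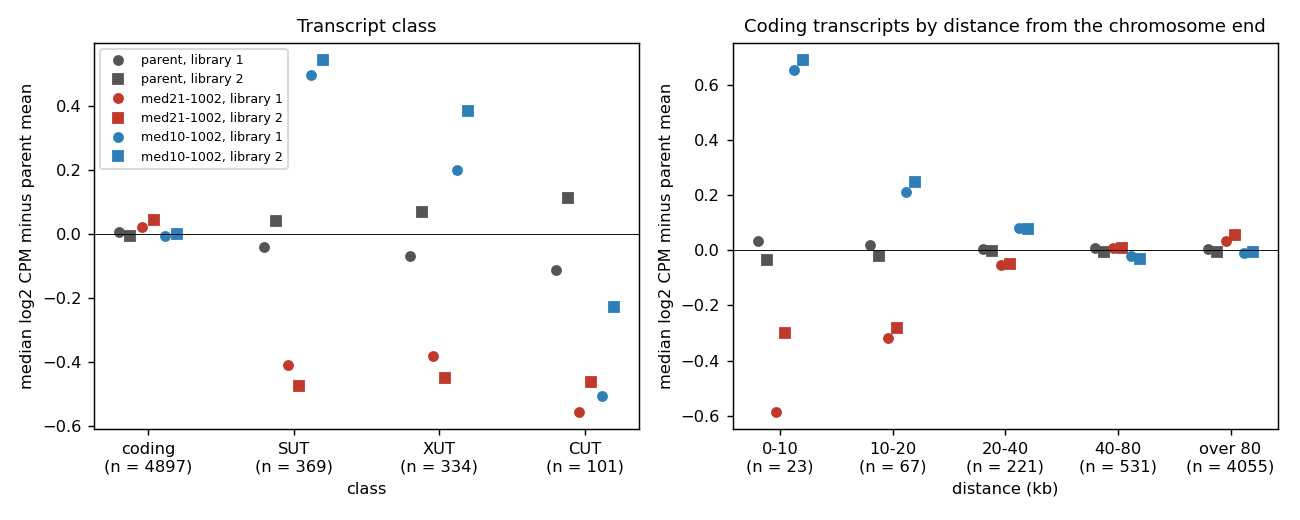
Median over transcripts of log2 CPM minus the mean of the parent libraries, in each library (circles, library 1; squares, library 2), by transcript class (left) and for coding transcripts by distance from the chromosome end in kb (right); n is the number of tested transcripts. Both med21-1002 libraries (red) lie below the parent (grey) for SUTs, XUTs and CUTs and within 20 kb of an end, while the med10-1002 libraries (blue) lie above it for SUTs and XUTs and within 20 kb.

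The comparison with med10-1002 tested where the alleles differ. The parent libraries enter it only through the fit (TMM scaling, filter and shared spread), and leaving out 1 of them gave 2376 or 2382 calls. Med10 is another middle module subunit. Of 5701 transcripts, 2700 differed (47.4%), 1278 higher in med21-1002 (22.4%) and 1422 lower (24.9%). With transcript length corrected for, 1982 were higher and 1203 lower, so the split between higher and lower went from 47.3% to 62.2% higher. The median of all log2 differences moved from 0.01 to 0.11, so small shifts of whole groups in this comparison are uncertain. SUTs and transcripts near chromosome ends were lower in med21-1002: 210 of 369 SUTs and 62 of 90 coding transcripts within 20 kb of an end, while 12 and 8 were higher. Relative to the parent mean, the median SUT stood at 0.49 and 0.54 in the med10-1002 libraries and at -0.41 and -0.47 in the med21-1002 libraries on the log2 scale. The alleles lie on opposite sides of the parent here. Without med10-1002 replicate 1, the comparison of the alleles gave 1568 calls, and with all 8 libraries 1150.

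Stress, respiratory, histone and hexose transporter genes were mostly higher in med21-1002 than in med10-1002 too, while tricarboxylic acid cycle, glycolytic and ribosomal protein genes were not. Of 42 general stress genes, 29 were higher and 4 lower than in med10-1002, and of 47 respiratory genes, 40 were higher and 1 lower. CTT1 stood at 62.6 and 60.1 CPM in med10-1002 (log2 difference 2.40, SE 0.10, adjusted p = 3.8e-08), and HAP4 at 628 and 603 CPM (log2 difference 0.80, SE 0.09, adjusted p = 1.8e-05). Of the histone genes 10 of 11 were higher in med21-1002, and all 4 Aro80 targets were lower, with ARO10 at 2160.3 and 2109 CPM in med10-1002 (log2 difference -4.01, SE 0.20, adjusted p = 5.8e-08). Of the hexose transporter list, 6 of 9 members were higher and 0 lower. Of the tricarboxylic acid cycle genes 7 were higher and 10 lower, and of the glycolytic genes 5 were higher and 6 lower. Of the ribosomal protein genes 11 were higher and 34 lower. Among ribosomal protein genes RPL22B stood at 168 and 171 CPM in med10-1002 (log2 difference -2.52, SE 0.14, adjusted p = 9.9e-08). RTC3, a gene linked to telomere capping, was among the 10 with the largest excess over med10-1002, at 42.7 and 34.6 CPM in parent and 97.8 and 179 in med21-1002 but 26.7 and 28.8 CPM in med10-1002 (log2 difference 2.31, SE 0.22, adjusted p = 6.4e-06). SUT692, a noncoding transcript, was among the 10 furthest below, at 8.26 and 9.16 CPM in parent and 3.09 and 3.44 in med21-1002 and 30.2 and 30.0 CPM in med10-1002 (log2 difference -3.21, SE 0.18, adjusted p = 1.2e-07). Some changes were not told apart from med10-1002. LEU2 stood at 171 and 165 CPM there, close to its level in med21-1002 (log2 difference 0.07, SE 0.08, adjusted p = 0.47), and TIS11 at 51.7 and 61.6 CPM (log2 difference -0.17, SE 0.11, adjusted p = 0.23). NCA3, at 163 and 159 CPM, lay between parent and med21-1002 (log2 difference 0.55, SE 0.12, adjusted p = 0.0025). SPS4, at 32.9 and 33.1 CPM, was higher in med10-1002 than in med21-1002 (log2 difference -0.43, SE 0.14, adjusted p = 0.025). The position of each library for the gene groups is shown in the plot of group medians.

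**Figure D5:**
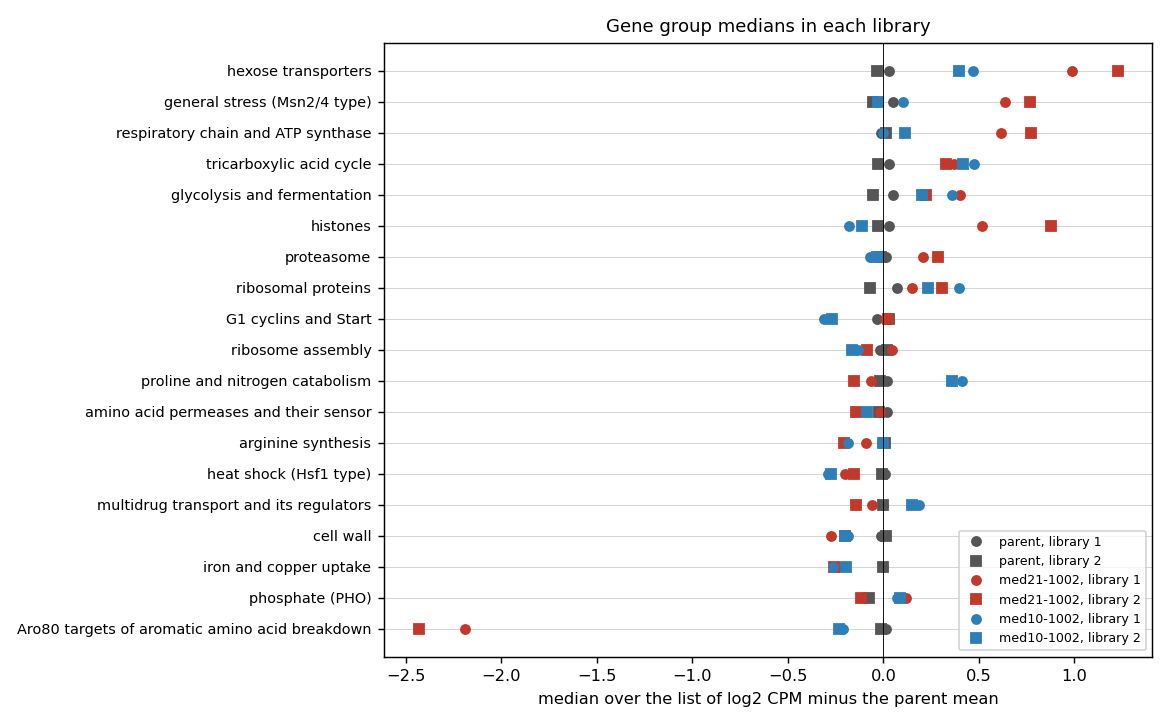
Median over each gene group of log2 CPM minus the mean of the parent libraries, in every library (circles, library 1; squares, library 2; grey parent, red med21-1002, blue med10-1002). The med21-1002 libraries lie furthest right for hexose transporters, stress, respiratory and histone genes and furthest left for the Aro80 targets, while the points of the mutants overlap for glycolysis, and both med10-1002 points lie right of both med21-1002 points for the tricarboxylic acid cycle.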

How the data were processed

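For each library the authors deposited 1 file of raw counts, whole reads for every annotated transcript, from 4-thiouracil-labelled RNA. The tools, per the submitters' processing notes, were HTSeq, SAMtools and STAR 2.3.0, and the build was sacCer3 (R64). Neither the strand setting nor the counting mode is given in the sources. The 5 summary lines at the end of each file (such as reads on no feature, 32.7% to 36.3%) were left out. No spike-in was used here, and values are relative to the rest of a library. Counts were normalised by TMM and fitted with edgeR 4.0.16 in R 4.3.3 (quasi-likelihood test, filterByExpr with a minimum count of 10, Benjamini-Hochberg adjustment over all 5701 tested transcripts) on the parent, med21-1002 and med10-1002 libraries together, which share 1 estimate of the spread. A call is an adjusted p under 0.05, and CPM is the count scaled to library size with TMM factors, with no prior count; the mating type check uses CPM without TMM. The 17 alternatives included DESeq2 1.42.0, other scalings and filters, a correction for transcript length, and leaving out each library. The procedure was tested on simulated counts for 5689 transcripts of the med21-1002 against parent comparison. There, 200 transcripts were changed, and all groups had the same spread. It found 91.9% of 2-fold and 99% of 4-fold changes with 10 false calls. The data differ from this setting, with 1694 calls and an SD between libraries of 0.354 for med21-1002 and 0.221 for med10-1002. The simulation therefore does not give the error rate of the calls reported here.

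Transcripts were named by rule. By size of change, the choice in each direction was the 15 largest, 6 noncoding and the 10 largest differences from med10-1002. For these, the rule required a call, a mean log2 CPM of 3 or more and no overlap between the libraries of the groups compared. Also named were selected control genes and members of the gene lists with the smallest adjusted p. Other transcripts are marked as named after their values were seen, as are the members that make up counts of 5 or fewer. The comparison, the members and the lists were chosen with earlier results of these data known. Of 4928 coding transcripts, 4842 matched a RefSeq gene by systematic name. Promoter windows were cut from the R64 genome of RefSeq, the build of the annotation, from 250 bases before to 50 after the annotated start. The motif of Aro80 was chosen after the values were seen. Some listed genes are counted but not reported here by name.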

Additional observations from a re-analysis of the deposited data

Results flagged for a closer look

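The 20 transcripts listed here were chosen by rule as the largest differences between med21-1002 and med10-1002 among those that passed edgeR's test. Passing does not set them apart, since 2700 of 5701 transcripts (47.4%) passed it. Because the largest were chosen, their passing under other settings is no separate support. Values are log2 differences, med21-1002 minus med10-1002. Higher in med21-1002 were PUT4 (5.03), DDR2 (4.33), HXT7 (2.44), CTT1 (2.40), HSP26 (2.39), RTC3 (2.31), GLC3 (2.14), GSY1 (2.13), HXT6 (2.07) and NFG1 (2.05). Against the parent, the general stress gene HSP26 had risen by 2.44 and the glycogen genes GLC3 and GSY1 by 2.17 and 2.24, close to these differences, whereas DDR2 had risen by 2.80, with mean levels of 1.84 CPM in med10-1002, 5.29 in parent and 37.1 in med21-1002. Lower in med21-1002 were ARO10 (-4.01), SEO1 (-3.88), SUT116 (-3.46), SUT692 (-3.21), IMD2 (-2.85), BDS1 (-2.77), YIR042C (-2.56), RPL22B (-2.52), YDL241W (-2.52) and PDH1 (-2.46). For RPL22B, a ribosomal protein gene, most of the gap lay on the side of med10-1002, with means of 169 CPM there, 40.5 in parent and 29.4 in med21-1002. For BDS1, an alkylsulfatase gene, the mutants lay on either side of the parent, with means of 294 CPM in med10-1002, 125 in parent and 43.1 in med21-1002. For ARO10 the gap lay on the side of med21-1002. The differences of the 18 coding transcripts passed under each of the 17 alternatives, and those of SUT116 and SUT692 under each of the 16 that test noncoding transcripts.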

How the results depend on the processing

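Against the parent, 448 transcripts passed with all 8 libraries in the fit (223 higher, 225 lower). Leaving out 1 library at a time gave 772 to 2378 calls, 355 to 1245 higher and 417 to 1133 lower, with the lowest counts without parent replicate 2 and the highest without med21-1002 replicate 1; the cause was not tested. Against med10-1002, all 8 libraries gave 1150 calls (539 higher, 611 lower), the length correction gave 1982 higher, and leaving out 1 library gave 1568 to 3278 calls, 625 to 1697 higher and 943 to 1581 lower. The other settings kept these counts within 1.5 times. Of 259 calls examined one by one against the parent, 134 did not pass with all 8 libraries, 72 without parent replicate 1 and 89 without parent replicate 2, and 0 changed sign under these settings. With 1 library left out, the sign turned for 3 transcripts that had not passed, as log2 fold changes: SRB7 ranged from -0.39 to 0.0105 (positive without med21-1002 replicate 1), SAG1 from -0.33 to 0.0328 and STE3 from -0.21 to 0.00378 (both positive without med21-1002 replicate 2). The labels do not say what a shared replicate number means. Correlations of same-numbered deviations between groups were -0.0806, 0.123 and 0.0593. With 2 libraries per group, these values cannot show whether same-numbered libraries were handled together. A fit with the replicate block gave 1680 calls against the parent and 2731 against med10-1002. Transcripts with few reads limit what can be seen, since 5701 of 6030 annotated transcripts had enough counts to be tested.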
